A study of Mus musculus with 34 samples.

Results

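The 9 genes described here, Mbp, Mobp, Mal, Cldn11, Mog, Mag, Opalin, Cnp and Ermn, encode proteins of the myelin sheath made by mature oligodendrocytes. They were taken by gene symbol from the deposited count table, which lists 55385 genes, and all 9 were among the 17632 genes with enough counts to be tested. Each of 34 libraries came from the cortex of 1 mouse, 6 months old, was made from poly-A RNA and held 16029841 to 21388650 counted reads. 5xFAD-Dp16 mice carry both lesions (4 given tofacitinib, 3 given sham), Dp16 mice carry the duplication alone (5 tofacitinib, 3 sham), and 5xFAD mice carry the transgenes alone (5 tofacitinib, 4 sham). Wild-type mice are C57BL/6J (5 tofacitinib, 5 sham). The labels name no strain background for the other genotypes.

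Dp16 is a duplication of the mouse chromosome 16 segment that matches much of human chromosome 21, and none of the 9 genes lies on chromosome 16. The transgenes of 5xFAD are human genes mutated in familial Alzheimer's disease. They are driven by Thy1 sequences, so their expression is neuronal and the mice model amyloid deposition. Tofacitinib, an inhibitor of Janus kinases, was given at 15 mg/kg by gavage every day for a month, and the sham gavage was 0.5% methylcellulose. All mice of all groups were gavaged. In bulk tissue, fewer oligodendrocytes and less RNA per oligodendrocyte cannot be told apart.

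Myelin is the membrane that oligodendrocytes wrap around axons, and it speeds conduction and supports the axon. Its compact layers are held together on the cytoplasmic side by Mbp, myelin basic protein. Oligodendrocyte precursors leave the cell cycle, pass through a committed stage and then switch on the myelin genes under Sox10 and Myrf, transcription factors of the lineage. In the cortex, myelin is sparse in the upper layers and dense in the white matter beneath, so these transcripts also follow how much white matter a piece of tissue holds.

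The genes fall by role as follows (positions GRCm38, GENCODE M21). Of the proteins of compact myelin, Mbp (ENSMUSG00000041607.17) lies on chromosome 18 at 82475146 to 82585637, plus strand. Mobp (ENSMUSG00000032517.16), a second small basic protein of the cytoplasmic face, lies on chromosome 9 at 120149707 to 120181484, plus strand. Mal (ENSMUSG00000027375.14), a proteolipid that takes part in sorting membrane to myelin, lies on chromosome 2 at 127633226 to 127656695, minus strand. Cldn11 (ENSMUSG00000037625.7), the claudin of the tight junctions between myelin layers, lies on chromosome 3 at 31149920 to 31164324, plus strand.

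Of the surface proteins, Mog (ENSMUSG00000076439.12), an immunoglobulin-domain protein of the outermost layer, lies on chromosome 17 at 37010743 to 37023398, minus strand. Mag (ENSMUSG00000036634.15), the adhesion molecule of the layer next to the axon, lies on chromosome 7 at 30899176 to 30914873, minus strand. Opalin (ENSMUSG00000050121.9), a membrane glycoprotein, lies on chromosome 19 at 41061710 to 41077113, minus strand. Of the cytoplasmic proteins, Cnp (ENSMUSG00000006782.16), a phosphodiesterase that keeps cytoplasm-filled channels open in myelin, lies on chromosome 11 at 100574904 to 100591729, plus strand. Ermn (ENSMUSG00000026830.9), ermin, an actin-binding protein of late oligodendrocytes, lies on chromosome 2 at 58045113 to 58052864, minus strand. Exons of Mobp overlap those of the same-strand gene Gm38642, and exons of Cnp and Ermn overlap those of Dnajc7 and Galnt5 on the opposite strand. The kit kept strand but the strand setting of the counting is not given in the sources used here, so how far those genes share reads is uncertain.

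The promoters of the 5 genes that the results turn on are shown because they form 2 pairs that moved together across libraries, Mag with Cnp and Mal with Mobp, and because Ermn differed most with Dp16. Each run is 300 bases from RefSeq (GRCm38.p6), from 250 before the transcription start to 50 after it, 5′ to 3′ on the gene's strand. Capitals mark matches, on either strand, to CTGGNAC (the motif of Myrf), ACAANG (of SOX factors) and GGGCGG (of Sp1). Mag, the first of 3 promoters that RefSeq lists for it, is at chr7:30914814-30915113, minus strand, with 2 matches to the Myrf motif and 2 to the SOX motif. The third Mag promoter holds no Myrf match. Cnp is at chr11:100574689-100574988, plus strand, with 2 Myrf, 1 SOX and 2 Sp1 matches. Ermn is at chr2:58052815-58053114, minus strand, with 2 SOX matches. Mal is at chr2:127656646-127656945, minus strand, and holds none of the 3 motifs. Mobp is at chr9:120149492-120149791, plus strand, with 6 SOX matches.
Mag: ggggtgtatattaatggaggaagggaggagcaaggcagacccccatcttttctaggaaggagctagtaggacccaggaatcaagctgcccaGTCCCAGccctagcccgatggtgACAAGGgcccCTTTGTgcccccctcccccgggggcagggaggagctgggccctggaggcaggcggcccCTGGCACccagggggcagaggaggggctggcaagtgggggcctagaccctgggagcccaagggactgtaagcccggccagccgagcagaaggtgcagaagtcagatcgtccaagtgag
Cnp: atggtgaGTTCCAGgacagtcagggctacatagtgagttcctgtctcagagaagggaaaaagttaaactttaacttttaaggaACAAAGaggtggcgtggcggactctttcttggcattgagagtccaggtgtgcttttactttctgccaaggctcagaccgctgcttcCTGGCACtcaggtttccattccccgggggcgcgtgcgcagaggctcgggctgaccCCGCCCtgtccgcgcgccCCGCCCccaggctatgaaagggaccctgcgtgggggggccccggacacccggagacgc
Ermn: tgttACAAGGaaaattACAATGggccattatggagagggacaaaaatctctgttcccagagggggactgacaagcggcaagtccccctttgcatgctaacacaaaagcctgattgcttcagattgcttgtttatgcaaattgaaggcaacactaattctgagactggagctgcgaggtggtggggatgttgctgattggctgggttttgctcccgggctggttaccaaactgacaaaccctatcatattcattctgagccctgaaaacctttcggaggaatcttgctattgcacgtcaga
Mal: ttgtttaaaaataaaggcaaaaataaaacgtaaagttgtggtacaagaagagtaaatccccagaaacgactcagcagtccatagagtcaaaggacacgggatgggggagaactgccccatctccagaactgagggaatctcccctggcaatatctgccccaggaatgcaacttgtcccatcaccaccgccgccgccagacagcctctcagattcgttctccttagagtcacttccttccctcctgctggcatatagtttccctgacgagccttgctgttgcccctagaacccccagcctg
Mobp: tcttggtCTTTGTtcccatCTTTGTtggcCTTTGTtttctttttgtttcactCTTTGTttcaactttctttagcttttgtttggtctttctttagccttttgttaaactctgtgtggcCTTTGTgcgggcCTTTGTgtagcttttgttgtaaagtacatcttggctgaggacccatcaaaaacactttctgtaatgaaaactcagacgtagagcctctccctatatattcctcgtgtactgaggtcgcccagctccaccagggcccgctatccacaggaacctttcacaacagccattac
Of 32851 RefSeq promoters of this length, 19.3% hold the Myrf motif, 41.2% the SOX motif and 35.7% the Sp1 motif. Promoters were matched for 8 of the 9 genes. Of the others, Mog had 1 Myrf and 1 SOX match, Opalin 1 Myrf and 2 SOX matches, and Cldn11 1 Sp1 match. These matches are letters in a window and say nothing of binding.

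Per kilobase of gene length, Mbp was by far the most abundant of the 9, with a mean of 604.5 RPKM over the 34 libraries (reads scaled to gene length and library size, the authors' values). Mal followed with 170.5 RPKM, Cnp with 146.4, Cldn11 with 87.6, Mag with 79.3, Mobp with 77.6, Mog with 41.4, Ermn with 29.6 and Opalin with 20.2. The order was firm at some steps and not at others. Mbp was above Mal, Cnp above Cldn11, Mobp above Mog and Mog above Ermn in 34 of 34 libraries, and Ermn above Opalin in 33. Mal exceeded Cnp in only 21 of 34 libraries and Mag exceeded Mobp in 19, so those neighbours did not differ beyond the spread between libraries. Cldn11 exceeded Mag in 28. Together the 9 genes took 0.486% to 1.33% of the counts of a library, and Mbp alone made up 69.9% to 76.4% of their summed CPM (counts scaled by TMM to library size, used from here on).

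Before any comparison, 1 library stood apart. In 5xFAD tofacitinib 2 the 9 genes summed to 12016 CPM, against a median of 6507 CPM and a range of 4788 to 8727 CPM in the other 33 libraries, a ratio of 1.85. Each of the 9 genes was raised in it, by 1.66 times the median of the others for Mal to 2.102 times for Mog, and 8 of the 9 had their highest value there. The exception was Mal, at 763 CPM in 5xFAD tofacitinib 2 and 776 CPM in Dp16 tofacitinib 4. The raised level was shared by the rest of the myelin program: a list of 20 other mature oligodendrocyte genes summed to 5643 CPM, against a median of 3169 CPM elsewhere.

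Earlier stages of the lineage were raised less in the same library. Committed precursor genes stood at 1.27 times and precursor genes at 1.24 times the median of the other libraries. Neuronal genes summed to 4046 CPM, against a median of 7333 CPM and a lowest value of 5902 CPM in the others. Choroid plexus genes reached 1478 CPM (median 15.9 and highest 939 CPM in the others), and thalamus genes 136 CPM (median 39.2, highest 49.5 CPM). Hippocampus genes reached 99.0 CPM (median 30.8, highest 128 CPM), while genes of peripheral myelin stayed at 1.81 CPM (median 1.09 CPM). The library thus carried more myelin, choroid plexus and thalamus transcripts and fewer neuronal transcripts than the cortex libraries around it. It also exceeded all others for genes reported raised in oligodendrocytes near plaques (565 CPM, highest other 474) and for myelin lipid synthesis (314, highest other 223). The same held for lineage regulators (514, 473), committed precursors (1002, 904), precursors (150.0, 148.3) and microglia (605, 599). Astrocyte genes were just below all others (5675 CPM, lowest other 5676). Beside the results it touches most, values without it (without library 2, in what follows) are given.

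**Figure D1:**
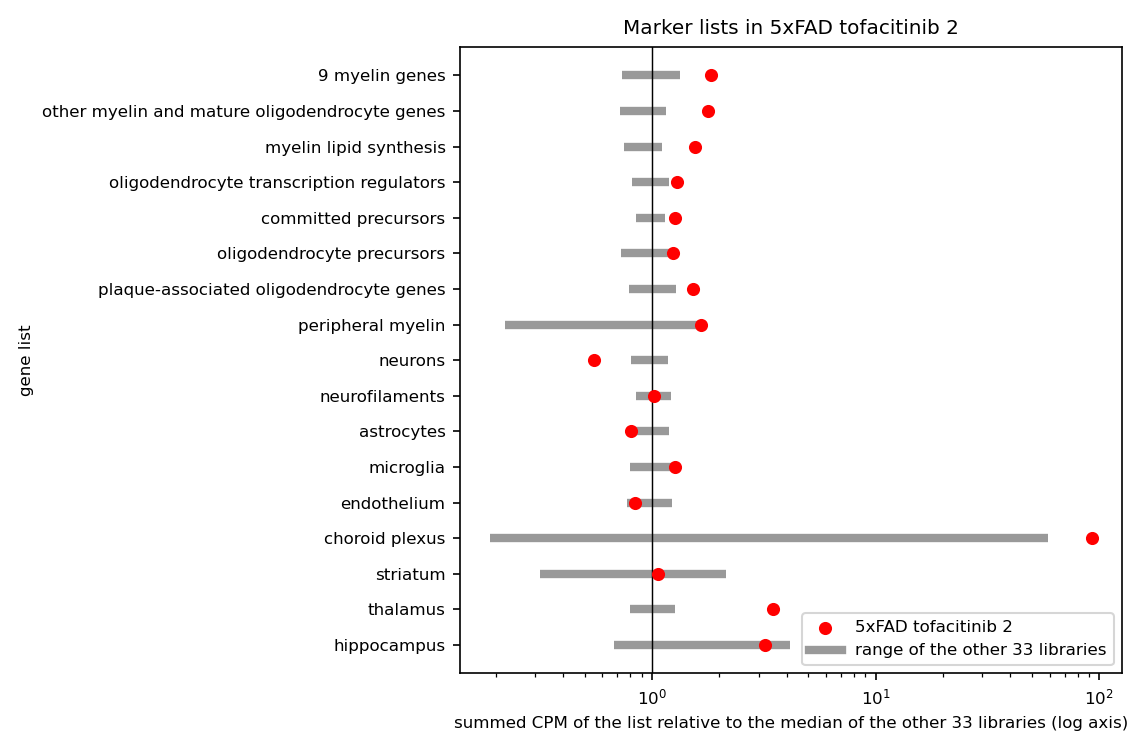
Summed CPM of each marker list in 5xFAD tofacitinib 2, divided by the median of the other 33 libraries (logarithmic axis). Grey bars span the other 33 libraries. Choroid plexus, thalamus, the 9 myelin genes, all other oligodendrocyte lists and microglia lie at or beyond the right end of their bars. Hippocampus and peripheral myelin genes do not. Neurons lie left of their bar, and astrocytes lie at the left end of theirs.

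The levels by genotype and treatment follow, as means ± SD in CPM over the mice of each group. Mbp averaged 4287 ± 654 in 5xFAD-Dp16 tofacitinib, 4354 ± 285 in 5xFAD-Dp16 sham, 5186 ± 921 in Dp16 tofacitinib and 4337 ± 879 in Dp16 sham. Without the duplication it averaged 5500.0 ± 2064 in 5xFAD tofacitinib (4609 ± 624 without library 2), 4487 ± 619.7 in 5xFAD sham, 5178 ± 655 in wild-type tofacitinib and 5249 ± 429 in wild-type sham. In the order of the 8 group means of Mbp, only the step between wild-type tofacitinib and 5xFAD sham was larger than the SD of both groups. Most steps between neighbouring group means of Mbp were therefore within the spread of a group. Groups further apart in the order were not compared in this way.

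Mobp, the other small basic protein, averaged 358 ± 50.5 CPM in 5xFAD-Dp16 tofacitinib, 339 ± 49.0 in 5xFAD-Dp16 sham, 422 ± 83.3 in Dp16 tofacitinib and 379.7 ± 77.9 in Dp16 sham. It averaged 369 ± 132 CPM in 5xFAD tofacitinib (312 ± 36.7 without library 2), 302 ± 36.9 in 5xFAD sham, 347 ± 60.9 in wild-type tofacitinib and 373 ± 27.8 in wild-type sham. Its group means ran highest in Dp16 tofacitinib and lowest in 5xFAD sham, and Mal had the same 2 groups at its ends. Mal averaged 424 ± 73.3 CPM in 5xFAD-Dp16 tofacitinib, 424 ± 75.2 in 5xFAD-Dp16 sham, 604 ± 108 in Dp16 tofacitinib and 549 ± 78.5 in Dp16 sham. It averaged 481 ± 169 CPM in 5xFAD tofacitinib (410.0 ± 67.9 without library 2), 352 ± 38.9 in 5xFAD sham, 440.4 ± 75.0 in wild-type tofacitinib and 486 ± 59.3 in wild-type sham. No neighbouring pair of group means differed by more than the larger SD for either gene. Neighbours in a sorted order are close by construction, and the 2 groups at the ends are far apart by construction. Those 2 differed by more than either SD for both genes, which by itself cannot show a difference between groups.

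Cldn11 averaged 132 ± 11.1 CPM in 5xFAD-Dp16 tofacitinib, 153 ± 8.67 in 5xFAD-Dp16 sham, 160.3 ± 25.1 in Dp16 tofacitinib and 152 ± 16.2 in Dp16 sham. It averaged 180.4 ± 51.1 CPM in 5xFAD tofacitinib (158 ± 10.3 without library 2), 167 ± 17.4 in 5xFAD sham, 169 ± 15.7 in wild-type tofacitinib and 180.3 ± 15.3 in wild-type sham. All 4 groups with the duplication had lower means than all 4 groups without it, but without library 2 the mean of 5xFAD tofacitinib was below that of Dp16 tofacitinib. Its lowest step, 5xFAD-Dp16 tofacitinib below Dp16 sham, was larger than both SDs.

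Of the surface proteins, Mog averaged 56.5 ± 4.25 CPM in 5xFAD-Dp16 tofacitinib, 62.4 ± 6.04 in 5xFAD-Dp16 sham, 72.2 ± 13.0 in Dp16 tofacitinib and 72.6 ± 14.4 in Dp16 sham. It averaged 86.0 ± 33.3 CPM in 5xFAD tofacitinib, 64.0 ± 6.57 in 5xFAD sham, 66.7 ± 8.50 in wild-type tofacitinib and 75.3 ± 7.23 in wild-type sham. Opalin, the least abundant, averaged 31.3 ± 3.21 CPM in 5xFAD-Dp16 tofacitinib, 31.4 ± 8.88 in 5xFAD-Dp16 sham, 40.4 ± 8.44 in Dp16 tofacitinib and 39.1 ± 12.04 in Dp16 sham. Neither gene sorted the groups by the duplication. Opalin averaged 43.1 ± 17.8 CPM in 5xFAD tofacitinib, 29.4 ± 4.22 in 5xFAD sham, 36.7 ± 5.97 in wild-type tofacitinib and 40.7 ± 9.48 in wild-type sham. The wide SDs of 5xFAD tofacitinib reflect library 2, without which Mog averaged 71.7 ± 10.8 and Opalin 35.9 ± 8.43 CPM there.

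**Figure D2:**
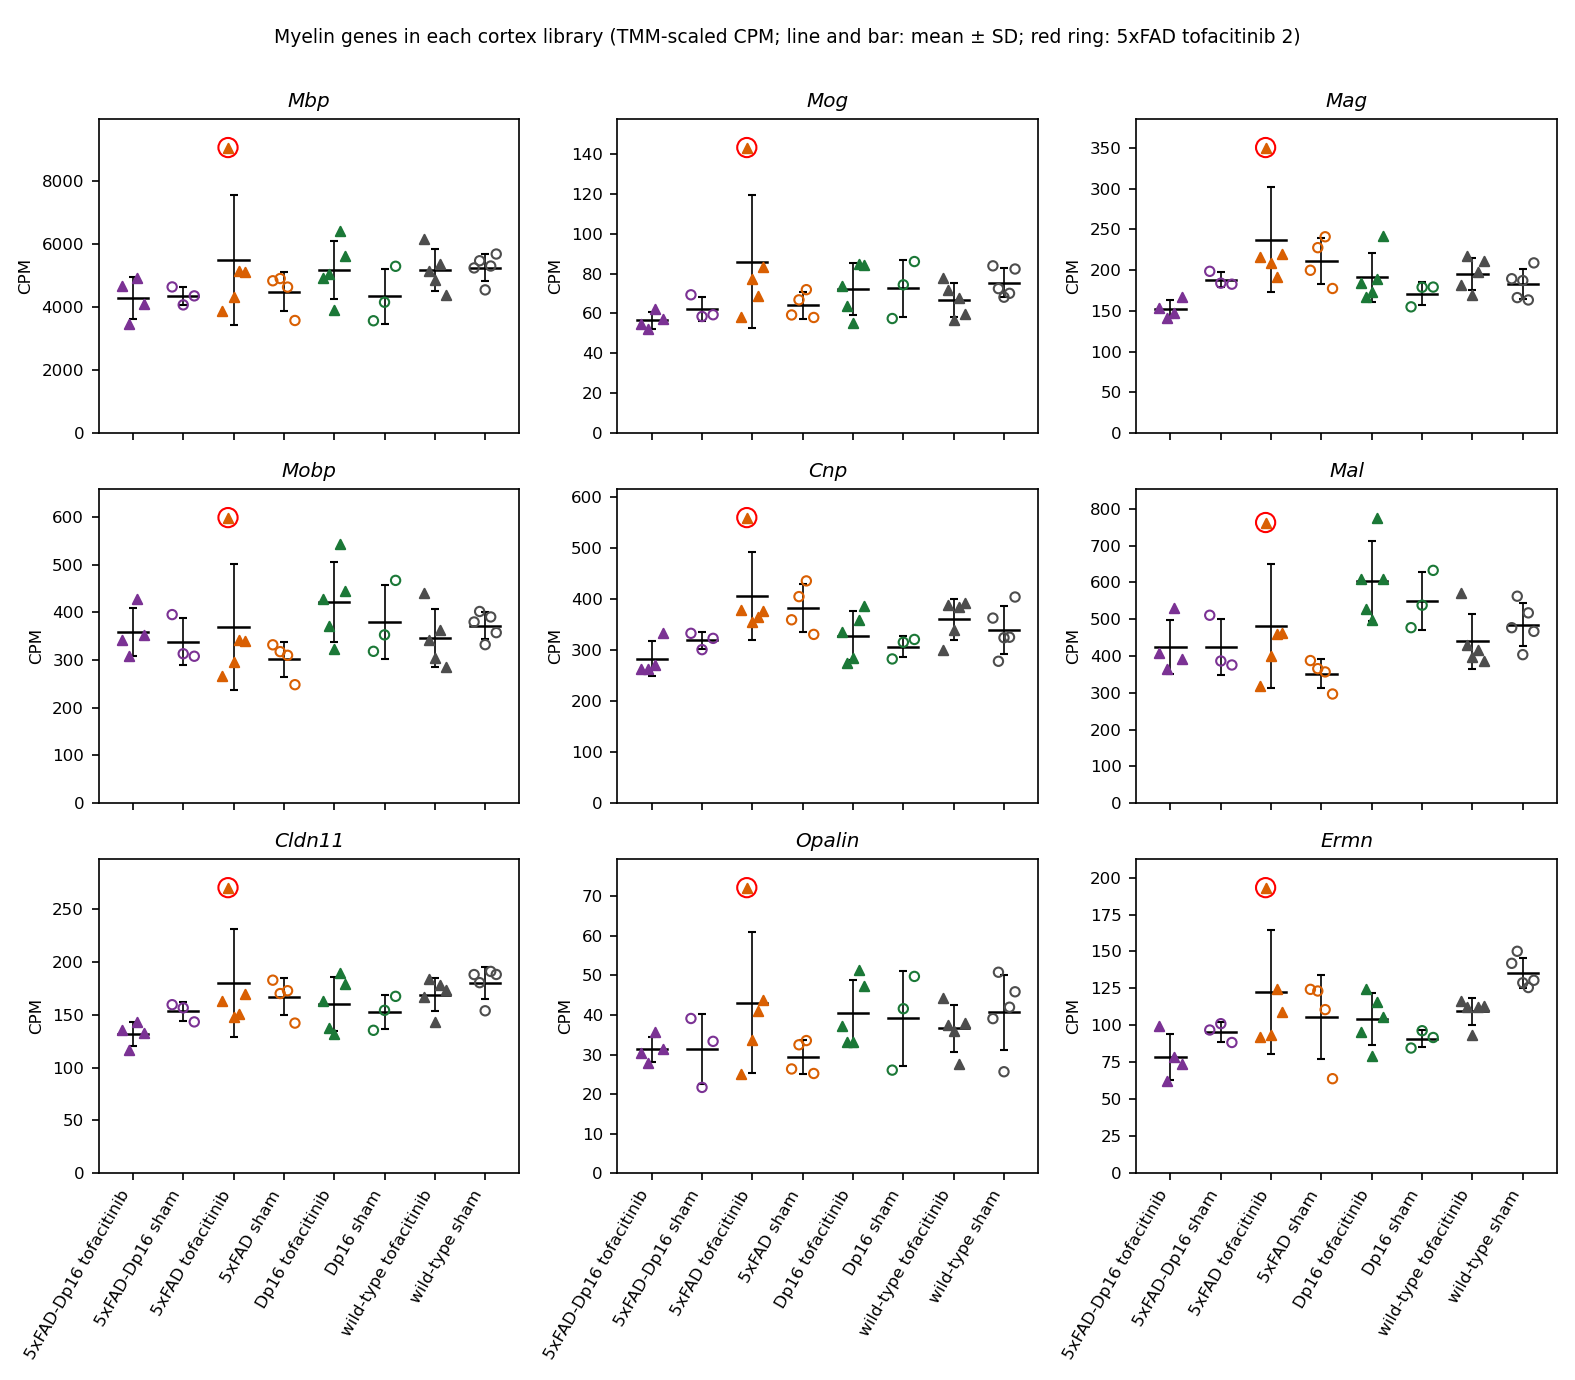
CPM of each of the 9 genes in each of the 34 libraries, by group, with the group mean ± SD. Triangles are tofacitinib mice, open circles sham mice, and the red ring marks 5xFAD tofacitinib 2, the highest value of 8 genes. Cnp and Ermn sit lower in the 4 groups with Dp16 than in the 4 without it, while Mal and Mobp are highest in Dp16 tofacitinib.

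The effect of the duplication over all conditions was asked by setting the 15 mice with Dp16 against the 19 without it, averaged over 5xFAD and treatment. Cnp and Ermn fell in the carriers, and the other myelin genes did not pass the test. Cnp lay between 263 and 387 CPM in carriers with a median of 316 CPM, against 278 to 560 CPM in non-carriers with a median of 366 CPM. Ermn lay between 62.6 and 124 CPM in carriers with a median of 95.8 CPM, against 63.9 to 193 CPM in non-carriers with a median of 117 CPM. Both genes overlapped widely between carriers and non-carriers. The fitted log2 difference was −0.25 for Cnp (SE 0.0670, 0.841-fold, edgeR adjusted p = 0.0397) and −0.39 for Ermn (SE 0.0917, 0.765-fold, edgeR adjusted p = 0.0178).

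The count of 2 of 9 stands beside 2.14% of all tested genes called in this comparison. Other members gave log2 differences of −0.23 for Mag (edgeR adjusted p = 0.0836), −0.23 for Cldn11 (0.0913), −0.17 for Mbp, −0.15 for Mog and −0.06 for Opalin. Mobp and Mal gave positive values, 0.10 and 0.17. The median of the 9 was −0.17, beside 0.00 for all tested genes. DESeq2 called Mag as well as Cnp and Ermn, beside 530 of all genes. Limma-voom called Cldn11 with Cnp and Ermn, beside 1163 of all genes. EdgeR called 378. Comparisons of single genotypes draw on the same mice and are not independent of this one.

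Ermn held its call when any of the 34 libraries was left out (edgeR adjusted p 0.0025 to 0.0416). Cnp held it in 15 of 34 such fits (adjusted p 0.0218 to 0.0902). The 19 libraries without which Cnp was not called were wild-type sham 1 and 5, wild-type tofacitinib 2, 4 and 5, 5xFAD sham 1, 2 and 3, Dp16 sham 1, 2 and 3, Dp16 tofacitinib 2 and 3, 5xFAD-Dp16 sham 1, 2 and 4, and 5xFAD-Dp16 tofacitinib 1, 2 and 3. Without 5xFAD tofacitinib 2 both genes were still called, at −0.20 for Cnp and −0.32 for Ermn, and the median of the 9 was −0.08. Without that library and wild-type sham 2 together, Cnp (−0.21) and Ermn (−0.30) were again called. Mal was called there too, as higher in carriers (0.27, edgeR adjusted p = 0.0403), beside 669 of all genes called. The call on Cnp therefore rests on a narrow margin and the call on Ermn does not depend on any single mouse. With the replicate number as a block in the fit, neither was called (edgeR adjusted p = 0.124 for Cnp and 0.0698 for Ermn).

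Other genes of the lineage were lower in Dp16 carriers too. Of 20 other mature oligodendrocyte genes, 3 fell and none rose, all 20 had fitted differences below 0, and their median was −0.19. Anln, an actin-binding scaffold protein that organises septins in myelin, averaged 31.8 ± 6.28 CPM in carriers and 49.1 ± 11.2 CPM in non-carriers (SD, n = 15 and 19), a log2 difference of −0.66 (SE 0.104, edgeR adjusted p = 0.000136). Gpr37, a receptor of differentiating oligodendrocytes, averaged 69.6 ± 8.62 CPM in carriers and 90.02 ± 14.1 CPM in non-carriers (−0.36, edgeR adjusted p = 0.00535). Adamts4, a secreted protease, averaged 27.9 CPM in carriers and 34.4 CPM in non-carriers (−0.33, edgeR adjusted p = 0.0177). The difference in Anln was larger than that of any of the 9 myelin genes. Of 6 genes of myelin lipid synthesis, Fa2h, which hydroxylates the fatty acids of galactolipids, fell by 0.27 on the log2 scale (edgeR adjusted p = 0.0272), and all 6 were below 0 with a median of −0.19.

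Regulators divided. Of 9 tested, 3 fell: Sox8 at −0.28 (47.9 ± 5.12 CPM in carriers and 57.0 ± 5.36 CPM in non-carriers, edgeR adjusted p = 0.000811), Myrf at −0.32 (59.9 ± 8.77 and 74.1 ± 12.6 CPM, adjusted p = 0.0155) and Sox10 at −0.33 (43.5 ± 9.04 and 53.9 ± 9.61 CPM, adjusted p = 0.0376). Sox10 and Myrf drive myelin gene expression, and Sox8 is the close relative of Sox10. Olig1 and Olig2, which lie in the duplicated segment, gave 0.22 (edgeR adjusted p = 0.0522) and 0.14. DESeq2 and limma-voom called Olig1 as higher in carriers, and so did edgeR with other filters or size factors. Of 8 committed precursor genes, Enpp6, a choline phosphodiesterase of newly formed oligodendrocytes, fell by 0.51 on the log2 scale (8.15 ± 1.59 CPM in carriers and 11.6 ± 3.00 CPM in non-carriers, adjusted p = 0.0206), while the median of the 8 was −0.01.

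Precursor genes did not show such a difference. None of 6 was called by edgeR and their median was 0.03, and Pdgfra, the growth factor receptor that marks precursors, averaged 48.7 CPM in carriers and 50.3 CPM in non-carriers. Of 6 genes reported to be raised in oligodendrocytes near plaques, 2 rose with the duplication, the class I antigen presentation genes H2-D1 (0.34, adjusted p = 0.00481) and B2m (0.23, adjusted p = 0.00911). Both are also expressed in other cell types. Without 5xFAD tofacitinib 2 the same genes of these lists were called, with Olig1 (higher) added, and 17 of the 20 other mature genes were below 0 with a median of −0.11.

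**Figure D3:**
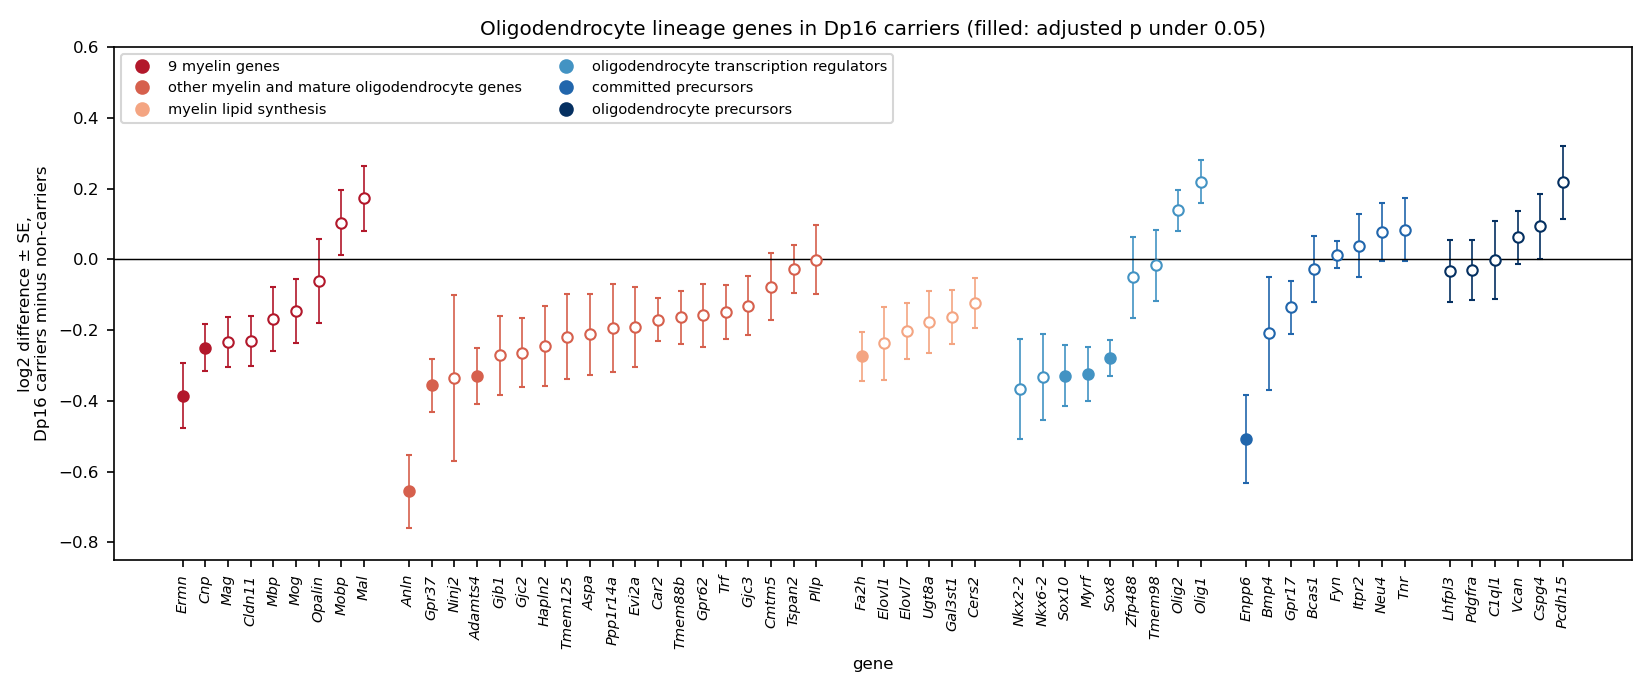
Fitted log2 difference ± SE, Dp16 carriers minus non-carriers, for tested genes of 6 lists of the oligodendrocyte lineage, with 1 gene of the other mature list not shown. Filled points passed an adjusted p of 0.05. The 9 myelin genes run from −0.39 (Ermn) to 0.17 (Mal), while all of the other mature and lipid genes shown lie below 0.

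Markers of tissue outside the cortex and of other cells were read in the same comparison. Striatum genes summed to a median of 828 CPM in carriers (403 to 1989) and 1407 CPM in non-carriers (558 to 2738), and all 10 had differences below 0 with a median of −0.56, though edgeR called none of them. Of the thalamus list, Synpo2 fell by 0.58 on the log2 scale (adjusted p = 0.0240). Among microglial genes, P2ry12 fell by 0.21 (adjusted p = 0.0397), and all 7 of the list were below 0 (median −0.10). All 3 neurofilament genes, which are neuronal, were below 0 as well (median −0.17), with none called. Of 7 astrocyte genes, 5 were above 0 (median 0.03). No neuronal gene of the list was called (without library 2, Gad1 was, as lower), and the neuronal list summed to a median of 7170 CPM in carriers and 7596 CPM in non-carriers. Choroid plexus genes had medians of 15.9 CPM in carriers and 19.2 CPM in non-carriers. The part of these differences in the myelin result was not tested.

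Within sham mice, Dp16 was set against wild-type. Ermn had 84.7, 91.8 and 96.4 CPM in Dp16 sham, against 126, 129, 131, 142 and 150 CPM in wild-type sham (listed low to high). The groups did not overlap, and the log2 difference was −0.61 (SE 0.190), yet the edgeR adjusted p was 0.338. Overlap was read for the 9 genes only, here and below. How many of all tested genes separate such small groups is therefore not known. Ermn was the only member under an unadjusted p of 0.05, beside 1281 of the 17632 tested genes. EdgeR called none of the 9, beside 0.21% of all tested genes. DESeq2 and limma-voom called none either. The median of the 9 was −0.10.

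5xFAD-Dp16 sham mice showed a similar level of Ermn, with 88.4, 96.9 and 101 CPM against the same wild-type mice (−0.54, SE 0.190, edgeR adjusted p = 0.238, no overlap). None of the 9 was called there by edgeR, DESeq2 or limma-voom (0.363% of all tested genes called by edgeR), with a median of −0.25. Under an unadjusted 0.05 were 1 member and 2619 of all tested genes. Set against 5xFAD sham, 5xFAD-Dp16 sham had 0 called by all 3 tools and 0 under an unadjusted 0.05. Of all genes, edgeR called 0.102% and 677 were under an unadjusted 0.05. The median of the 9 was −0.04, and Cnp had the smallest p at −0.23. Cnp had 301, 323 and 333 CPM in 5xFAD-Dp16 sham, against 331, 359.7, 405 and 436 CPM in 5xFAD sham, so the groups met at their edges. Set against Dp16 sham, 5xFAD-Dp16 sham again had 0 called and 0 under an unadjusted 0.05. Of all genes, edgeR called 0.00567% and 1098 were under an unadjusted 0.05. The median of the 9 was 0.01, and Mal had the smallest p at −0.38.

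Under tofacitinib, Dp16 was set against wild-type in the same way. Ermn did not separate there: it had 79.0, 95.8, 106, 116 and 124 CPM in Dp16 tofacitinib, against 93.6, 112, 112, 113 and 117 CPM in wild-type tofacitinib. Mal had the smallest p, with 497, 529, 609, 609.96 and 776 CPM in Dp16 tofacitinib, against 388, 396, 418, 429 and 571 CPM in wild-type tofacitinib. The difference of Mal was 0.45 (SE 0.163, edgeR adjusted p = 0.401) and only wild-type tofacitinib 1 reached into the Dp16 range. EdgeR called 0 of the 9 (0.25% of all genes called), DESeq2 0 and limma-voom 1, with a median of 0.00. Under an unadjusted 0.05 were 1 member and 1498 of all genes. The difference of the Dp16 effect between treatments, the interaction, called 0 members in all 3 tools. Ermn had the smallest p there, with a value of 0.51 (edgeR adjusted p = 0.973), and 0% of all genes were called. For this interaction, 1 member and 697 of all genes were under an unadjusted 0.05.

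Among the drug-treated mice, 5xFAD-Dp16 was then set against 5xFAD, which asks what the duplication changes where plaques and drug are both present. Mag fell. It had 141, 147, 153 and 167 CPM in 5xFAD-Dp16 tofacitinib, against 191, 209, 216, 219.9 and 350.4 CPM in 5xFAD tofacitinib. The groups did not overlap and the log2 difference was −0.64 (SE 0.133, 0.641-fold, edgeR adjusted p = 0.0202). Mag was the 1 member of 9 called, beside 0.238% of all tested genes (42 genes). DESeq2 called 3 members, beside 129 of all genes, and limma-voom 1, beside 190.

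All 9 genes gave values below 0 in this contrast, with a median of −0.46 (−0.25 without library 2). Cnp had 263, 263, 272 and 334 CPM in 5xFAD-Dp16 tofacitinib, against 355, 366, 376, 378 and 560.2 CPM in 5xFAD tofacitinib (−0.52, edgeR adjusted p = 0.0727), again without overlap. Ermn gave −0.64 (0.126), Mog −0.61 and Cldn11 −0.45 (0.1996, no overlap). The highest value of each of these genes in the 5xFAD group came from library 2. Without it the difference of Mag was −0.44 (edgeR adjusted p = 0.0722), and no member was called. The call on Mag was also lost without 5xFAD-Dp16 tofacitinib 1, 2 or 3 (adjusted p 0.0654, 0.117 and 0.0962), and without 5xFAD tofacitinib 1 the number called was 4.

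Beside Mag, 1 of the 20 other mature genes fell in this contrast, Anln at −0.88 (edgeR adjusted p = 0.0382), and none of the 20 lay above 0 (median −0.56). Without library 2 Anln gave −0.62 (adjusted p = 0.213), none of the 20 was called, and 2 lay above 0 (median −0.31). In the striatum list 0 of 10 genes were above 0 (median −0.66, and −0.74 without library 2). In the hippocampus list 0 of 6 were above 0 (median −0.81), but 4 of 6 without library 2 (median 0.38), and in the thalamus list 0 of 4 and then 2 of 4. Their part in the result for Mag was not tested.

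Set against wild-type tofacitinib, 5xFAD-Dp16 tofacitinib had a median of −0.27 over the 9 genes. Ermn had 62.6, 73.9, 78.6 and 99.8 CPM in 5xFAD-Dp16 tofacitinib, against the wild-type values given above (−0.49, edgeR adjusted p = 0.396), and the groups met only at 99.8 and 93.6 CPM. Mag and Cldn11 did not overlap, at −0.36 each. Their nearest values in 5xFAD-Dp16 and wild-type mice were 167.3 and 169.0 CPM for Mag and 142.9 and 143.5 CPM for Cldn11. EdgeR called 0 members (0.306% of all genes called), DESeq2 0 and limma-voom 2. Under an unadjusted 0.05 were 4 members and 1131 of all genes. Set against Dp16 tofacitinib the median was −0.33 and edgeR, DESeq2 and limma-voom called 0 (0.00567% of all genes called by edgeR). In that contrast, 5 members and 815 of all genes were under an unadjusted 0.05. Mal was nearest to the threshold there at −0.51 (edgeR adjusted p = 0.956), with 364, 391, 409 and 529.9 CPM in 5xFAD-Dp16 tofacitinib, against the Dp16 values given above.

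The 5xFAD transgenes alone were examined by setting 5xFAD sham against wild-type sham. Mal had 297, 357, 366 and 388 CPM in 5xFAD sham, against 404, 467, 477, 517 and 563 CPM in wild-type sham. Those groups did not overlap, and neither did those of Mobp (−0.30) and Ermn (−0.34). The nearest values in 5xFAD sham and wild-type sham were 332.2 and 332.5 CPM for Mobp and 124.4 and 125.6 CPM for Ermn. The difference of Mal was −0.46 (SE 0.175), but its edgeR adjusted p was 0.107. EdgeR called 0 of the 9 (0.017% of all genes called), and the median of the members was −0.24. Under an unadjusted 0.05 were 2 members and 4377 of the 17632 tested genes. DESeq2 called 0 members, beside 1587 of all genes, and limma-voom 1, beside 2512. 5xFAD sham 4 had the lowest Mal and Ermn values of its group.

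Over all 16 mice with 5xFAD and 18 without it, Mal again had the smallest p. It averaged 424 ± 110.3 CPM in 5xFAD carriers and 517 ± 100.4 CPM in non-carriers, a log2 difference of −0.30 (SE 0.0905, 0.810-fold, edgeR adjusted p = 0.101). Without 5xFAD tofacitinib 2 it was −0.37 (edgeR adjusted p = 0.0228), and without 5xFAD-Dp16 tofacitinib 3 the adjusted p was 0.0497, so leaving out either library brings a call. With all libraries edgeR called 0 members, beside 0.42% of all tested genes. Under an unadjusted 0.05 were 1 member and 3580 of all tested genes. DESeq2 and limma-voom called 1 member each, beside 587 and 460 of all genes. Opalin gave −0.23, Mobp −0.15, Ermn −0.13, Mog −0.11, Mbp −0.10 and Cldn11 −0.07, while Mag and Cnp gave 0.07 and 0.05. None of the oligodendrocyte lists had a called gene, and the microglial receptor gene Csf1r rose with 5xFAD (0.31, adjusted p = 0.0378).

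Among drug-treated mice the contrast of 5xFAD with wild-type gave a median of 0.15, and −0.07 without 5xFAD tofacitinib 2. Mog had the smallest p at 0.37 (edgeR adjusted p = 0.761), and edgeR, DESeq2 and limma-voom called 0 (0.017% of all genes called by edgeR). Under an unadjusted 0.05 were 2 members and 1127 of all genes. In the interaction of 5xFAD and Dp16, 1 member and 767 of all genes were under an unadjusted 0.05. This interaction, which asks whether both together differ from their sum, called 0 members in the 3 tools (0.00567% of all genes called by edgeR). Its median was −0.22 and Mag was nearest at −0.34 (edgeR adjusted p = 0.995). Without library 2 that median was −0.051 and Mag gave −0.24.

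Tofacitinib was set against sham within each genotype. Averaged over the 4 genotypes, the drug gave a median of 0.03, with Mbp nearest at 0.13 (edgeR adjusted p = 0.934), and no member was called by edgeR, DESeq2 or limma-voom or passed an unadjusted 0.05. Without library 2 the median was −0.020 and Mbp gave 0.056. EdgeR called 0% of all genes in this comparison and in each of the 4 genotypes, so a count of 0 is also the background. Averaged over genotypes, 592 of all genes were under an unadjusted 0.05. In wild-type mice Ermn did not overlap between treatments: the tofacitinib values of 93.6 to 117 CPM lay below the sham values of 126 to 150 CPM (−0.30, edgeR adjusted p = 0.689). The median of the 9 was −0.10 there, and no member passed an unadjusted 0.05, beside 1288 of all genes.

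In Dp16 mice the median was 0.14, with Mbp nearest at 0.26 (edgeR adjusted p = 1.00), and no member passed an unadjusted 0.05. Of all genes, 362 passed that threshold in Dp16 mice. In 5xFAD-Dp16 mice the median was −0.14, with 1 member and 338 of all genes under an unadjusted 0.05. Mag had 141 to 167 CPM in 5xFAD-Dp16 tofacitinib and 183, 184 and 198 CPM in 5xFAD-Dp16 sham, without overlap (−0.31, edgeR adjusted p = 0.999). Cldn11 did not overlap either (−0.21), but its nearest values were 142.9 CPM with the drug and 143.3 CPM in sham. In 5xFAD mice 3 members and 2617 of all genes were under an unadjusted 0.05. The median there was 0.28, with Mal nearest at 0.44 (edgeR adjusted p = 0.320). Without library 2 that median was 0.03. DESeq2 and limma-voom called 0 members in each genotype.

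The drug effect was then compared between genotypes by interaction. For 5xFAD against wild-type the median was 0.39 (0.16 without 5xFAD tofacitinib 2), with Mog nearest at 0.60 (edgeR adjusted p = 0.192). EdgeR called 0 (0% of all genes called), DESeq2 0 and limma-voom 1. Under an unadjusted 0.05 were 4 members and 3585 of the 17632 tested genes. For Dp16 against wild-type the median was 0.19, as part of the interaction described above. For 5xFAD-Dp16 against wild-type the median was 0.03, with Mag nearest at −0.41 (edgeR adjusted p = 0.653) and 0 called in the 3 tools (0% of all genes called by edgeR). Under an unadjusted 0.05 were 1 member and 1206 of all genes. Males and females did not separate: the median of the 9 was −0.00, Ermn was nearest at −0.14 (edgeR adjusted p = 0.967), and 0 were called by all 3 tools and 0 under an unadjusted 0.05 (0.0624% of all genes called).

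The 9 genes did not move as a single block. Over the 34 libraries the Pearson correlation of log2 CPM between pairs ran from 0.06 for Cnp with Mal to 0.93 for Mobp with Mal, with a median of 0.67 over the 36 pairs. Mag with Cnp also gave 0.93. Without library 2 the range was −0.20 to 0.92 with a median of 0.51. With group means removed it was 0.36 to 0.96 over all 34 libraries (median 0.75), and 0.056 to 0.94 without library 2 (median 0.58). Set against the mean of the other 8, Mbp and Mog followed most closely (0.92 each), then Cldn11 (0.86), Opalin (0.80), Mobp (0.75), Ermn (0.71), Mal (0.66), Mag (0.62) and Cnp (0.57). These are descriptions over libraries that share tissue, depth and library chemistry.

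The balance between the pairs was then taken per library as the mean log2 CPM of Mal and Mobp minus that of Mag and Cnp, a measure chosen after the values were seen and given without a test. It averaged 0.90 ± 0.24 in Dp16 carriers (0.49 to 1.31) and 0.50 ± 0.32 in non-carriers (0.03 to 1.14). It averaged 0.52 ± 0.33 in 5xFAD carriers (0.03 to 1.254) and 0.81 ± 0.31 in non-carriers (0.21 to 1.31). By group it was highest in Dp16 tofacitinib (1.01) and Dp16 sham (0.98), and lowest in 5xFAD sham (0.20), with wild-type sham at 0.77.

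A technical property of the libraries moved with this balance. For each library, the rank correlation over genes between GC content and log2 CPM relative to the mean library was taken as its GC trend. The GC trend correlated with the balance at r = −0.85 and rho = −0.87 over the 34 libraries (r = −0.82 without the 2 farthest), and a like trend with gene length at r = −0.70 and rho = −0.71 (r = −0.65). The genes themselves differ in GC content, at 57.6% for Mag and 54.8% for Cnp, against 53.3% for Mobp and 48.9% for Mal. Ermn has the lowest GC content of the 9, 38.0%. The counted lengths of the pairs differ too, at 2440 bases for Mag and 2357 for Cnp, against 4688 for Mobp and 2778 for Mal. The GC trend averaged −0.04 ± 0.08 in Dp16 carriers and 0.04 ± 0.13 in non-carriers. With the GC trend removed from the fit, Dp16 carriers gave 0.13 for Mal, 0.07 for Mobp, −0.26 for Mag and −0.28 for Cnp. Ermn gave −0.50 in that fit. The values without this removal are given above with the Dp16 comparison. The part of the GC and length trends in the balance itself was not tested.

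**Figure D4:**
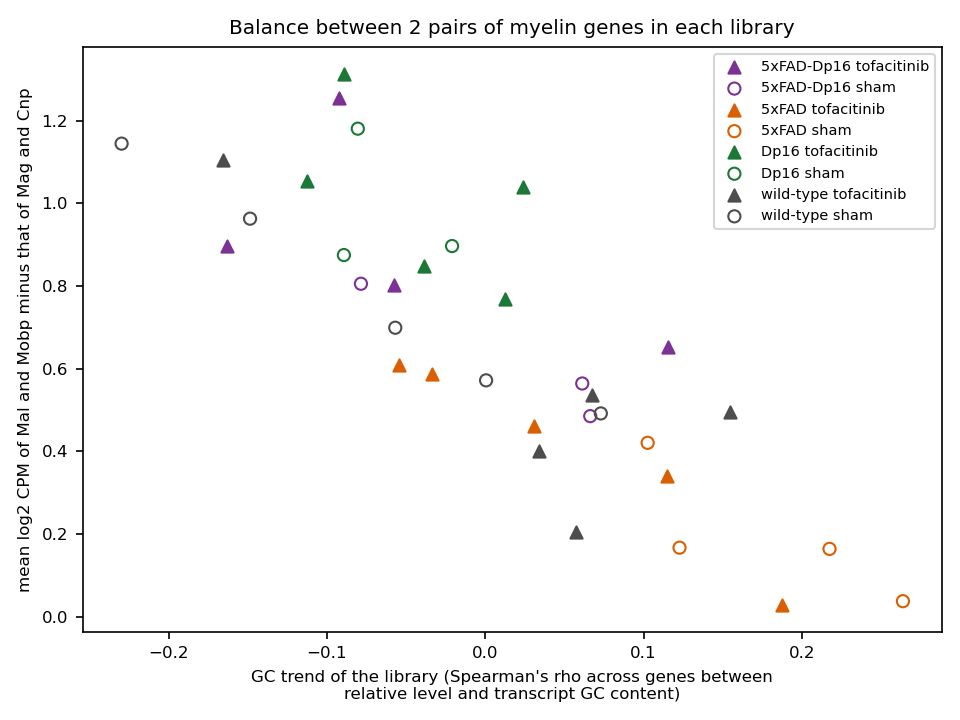
Balance of Mal and Mobp over Mag and Cnp (log2, vertical) against the GC trend of the library (rank correlation, horizontal), 1 point per library, by genotype and treatment. The balance is lower in libraries with a higher GC trend (r = −0.85, n = 34), and 5xFAD sham libraries lie toward the lower right.

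The genes outside the 9 whose level followed them best were ranked by Pearson correlation with the mean centred log2 CPM of the 9 over the 34 libraries. Of the 10 nearest, 9 are named here. Sept4, a septin, gave 0.92, followed by Cers2, the ceramide synthase of very long chains (0.91), and Aspa, which cleaves N-acetylaspartate (0.90). Plekhb1 (0.89), Qdpr, which regenerates tetrahydrobiopterin (0.88), Csrp1 (0.88), the connexin gene Gjc3 (0.87), the proteolipid gene Pllp (0.87) and Bcas1, a gene of early myelinating cells (0.87), followed. Without 5xFAD tofacitinib 2, 9 of the 10 were the same, with Gatm in place of Pllp.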

How the data were processed

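Cortex RNA (TRIzol, poly-A kit, paired 150-base reads) was processed by the authors on GRCm38. The submitters' processing notes list HTSeq 0.6.1, SAMtools 1.5, HISAT2 2.1.0, FastQC 0.11.5 and bcl2fastq without roles. The deposited counts are whole numbers per gene and mouse. The deposited RPKM values, scaled by the authors to gene length and column total, matched RPKM recomputed from the counts within 7.93e-14 in relative size over 713471 nonzero values. Groups came from the labels. For 5xFAD-Dp16 sham the series text states 4 mice and 3 were analysed here, and for 5xFAD tofacitinib 6 and 5.

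The test was that of edgeR 4.0.16 (R 4.3.3), with filterByExpr, TMM and 1 quasi-likelihood fit over 34 libraries with terms for group and sex, two-sided F-tests, and a call at a Benjamini-Hochberg adjusted p under 0.05 over 17632 genes. log2 CPM for correlations used a prior count of 1. In all, 22 comparisons were made. DESeq2 1.42.0 and limma 3.58.1 (voom with sample weights) were alternatives. The weights count outlying libraries less, so limma-voom differs from edgeR in more than the tool. Shares of all genes called are those of edgeR. Totals of DESeq2 and limma-voom over all genes were taken for some comparisons only. Elsewhere their calls have no background beside them. The p-values measure the spread between these mice. Members and lists were chosen with earlier results of these data known. All 9 members are named, with test values for those called or, where none was, for the smallest p, and of each other list up to 4 called genes; 1 gene that the rule for likeness names is not reported here. The fit was also run on simulated counts that held no outlying library and no GC or length trend. Its outcome there is not used as support for these results. No 2 libraries of a group agreed within sampling noise. The labels give no batch or date.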

Additional observations from a re-analysis of the deposited data

Results flagged for a closer look

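In 11 of 60 sets of 4 or 5 mice (each gene, and the sum of the 9, in each group large enough), 1 library lay far from the others by Dixon's test. For independent sets, chance gives about 1 in 20, or 3. These sets are not independent, because the 9 genes move together and Mbp makes up most of their sum. 5xFAD tofacitinib 2 was also known beforehand to stand apart. The count of 11 can therefore not be weighed against 3. Of the 11 sets, 6 came from 5xFAD tofacitinib 2: Mbp at 9064 CPM (next 5137), Mag at 350.4 (next 219.9), Mobp at 599 (next 343), Cnp at 560.2 (next 378), Cldn11 at 270.5 (next 169.9) and the 9 genes summed at 12016 (next 6918). The choroid plexus, thalamus and neuronal values of that library stand in the report, and their part was not tested.

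The other 5 came from 5 different libraries. Cnp was high in 5xFAD-Dp16 tofacitinib 4 at 334 CPM (next 272). Mal was high in wild-type tofacitinib 1 at 571 CPM (next 429). Cldn11 was low in wild-type sham 3 at 154 CPM (next 180.5). Ermn was low in wild-type tofacitinib 3 at 93.6 CPM (next 112). The 9 genes summed were low in 5xFAD sham 4, at 4916 CPM (next 6367).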

How the results depend on the processing

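Of the 258 alternative counts of members called, 225 stayed within 1.5 times the reported count and 33 moved; of 258 medians, 4 moved by more than the within-group SD of the 9 genes' mean log2 CPM (0.22); of 269 tests of a named member, 244 kept direction and call, 19 gained it, 5 lost it and 1 reversed. Limma-voom called 1 member in 5xFAD sham against wild-type sham, 1 in Dp16 against wild-type and 2 in 5xFAD-Dp16 against wild-type under tofacitinib, 1 in 5xFAD carriers and 1 in the drug by 5xFAD interaction. DESeq2 called 3 in 5xFAD-Dp16 against 5xFAD under tofacitinib and 1 in 5xFAD carriers. With no low-count filter the counts were 2, 1 and 1 for 5xFAD, Dp16 and 5xFAD-Dp16 sham against wild-type sham, 1, 1, 6 and 1 under tofacitinib for Dp16 and 5xFAD-Dp16 against wild-type and 5xFAD-Dp16 against 5xFAD and Dp16, 3 for the drug in 5xFAD, 2 in 5xFAD carriers, 4 in Dp16 carriers and 4 in the drug by 5xFAD interaction. A fit of only the groups compared gave 2 for 5xFAD sham, 1 for 5xFAD-Dp16 sham against wild-type sham and 0 for 5xFAD-Dp16 against 5xFAD under tofacitinib (Mag adjusted p = 0.519). Without wild-type sham 2 and 5xFAD tofacitinib 2 the last was also 0, 5xFAD carriers gave 1, and the medians were −0.093 for 5xFAD against wild-type under tofacitinib, 0.030 for the drug in 5xFAD and 0.095 for the drug by 5xFAD interaction. Trend removals were added after seeing the data: length gave 1 in 5xFAD carriers and 4 in Dp16 carriers, GC gave 2 in 5xFAD-Dp16 against 5xFAD under tofacitinib and 4 in Dp16 carriers, and both gave 1 in 5xFAD-Dp16 against wild-type under tofacitinib, 3 against 5xFAD, 1 in 5xFAD carriers and 4 in Dp16 carriers. The cause of these moves was not tested.

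Leaving out 1 library at a time gave 0 to 1 called in 5xFAD sham, 0 to 4 in 5xFAD-Dp16 against 5xFAD under tofacitinib, 0 to 1 in 5xFAD carriers, 1 to 3 in Dp16 carriers and 0 to 2 in the drug by 5xFAD interaction, and medians of −0.069 to 0.25 for 5xFAD against wild-type under tofacitinib, 0.035 to 0.38 for the drug in 5xFAD and 0.16 to 0.50 for the drug by 5xFAD interaction. Within that SD, medians ran from −0.22 to −0.036 for Dp16 against wild-type sham, −0.23 to −0.083 in Dp16 carriers, −0.18 to −0.071 in 5xFAD carriers, −0.27 to −0.051 for the 5xFAD by Dp16 interaction, 0.037 to 0.26 for the drug in Dp16, −0.20 to −0.060 in wild-type and −0.19 to −0.058 in 5xFAD-Dp16, and 0.096 to 0.41 for the drug by Dp16 interaction. Other medians that changed sign were those of 5xFAD-Dp16 sham against 5xFAD sham (−0.13 to 0.0036) and Dp16 sham (−0.12 to 0.069), Dp16 against wild-type under tofacitinib (−0.031 to 0.087), the drug over genotypes (−0.020 to 0.066), the drug by 5xFAD-Dp16 interaction (−0.051 to 0.12) and males against females (−0.045 to 0.068). Same-numbered mice did not visibly deviate together (correlations −0.34 to 0.22, median 0.017, 8 of 98 pairs over 0.1). Differently numbered mice gave 36 of 405 pairs over 0.1. These correlations cannot exclude that mice were handled together by number. With the replicate number as a block, 5xFAD-Dp16 against 5xFAD under tofacitinib had 0 called, Dp16 carriers 0 (206 genes called over all, against 378), and males against females a median of 0.24 with Ermn reversed to 0.29. Over all genes, 5xFAD sham against wild-type sham called 3 genes, DESeq2 1587 and limma-voom 2512; for Dp16 carriers limma-voom called 1163 and no filter 672; for 5xFAD carriers edgeR called 74, DESeq2 587 and no filter 1358; for 5xFAD-Dp16 against 5xFAD under tofacitinib edgeR called 42, DESeq2 129 and no filter 295.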
